A study of Sus scrofa with 12 samples.

Results

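Troponin is the calcium switch of striated muscle. In its complex, troponin I holds the thin filament in the inhibited state, troponin T ties the complex to tropomyosin and troponin C binds calcium. Fast and slow fibres use different genes for each subunit, and back muscle such as longissimus dorsi is made mostly of fast fibres. N6-methyladenosine (m6A) is the methyl mark on adenosines of mRNA that is best known for its effects on mRNA stability, splicing and translation.

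The genes described are the fast subunits TNNI2 and TNNT3 and the slow subunits TNNI1 and TNNT1. Their members are the m6A peaks that the deposited lists assign to these 4 genes, 19 of 13487 peaks in all, and every one of them is described below. The muscle came from 5-day-old Large White and Ningxiang pigs, with 3 replicates per breed. The sample titles name the tissue as muscle, without saying which one. Each replicate has an immunoprecipitated and an input library, and together they gave 1 peak list. The design text puts the comparison of modified mRNAs in muscle development of these breeds as the purpose. The labels name no treatment or genotype and do not say whether each replicate is its own pig, so any p-value here covers only how far these samples spread, part of which may be technical.

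Large White lists held 2214 to 2533 peaks and Ningxiang lists 2034 to 2222. Of 8 skeletal muscle markers, 7 had a peak in all 6 lists (DES, MYH1, MYH2, MYH4, RYR1, CKM and MYOG), and ACTA1 had none. Of all genes with a peak, 35.7% had one in all 6 lists. Read depth is unknown from these lists. A gene without a peak was one that the authors did not call, and its mRNA may still have been methylated. In bulk muscle, fewer fibres of a type, less mRNA per fibre and less methylation per mRNA cannot be told apart in such a call.

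Of these 4 genes, TNNT3 had a peak in all 6 lists, followed by TNNT1 in 5, TNNI2 in 4 and TNNI1 in 1. Together the genes had 3, 4 and 5 peaks in Large White replicates 1, 2 and 3, and 3, 3 and 1 in Ningxiang replicates 1, 2 and 3. Large White had a peak in more lists than Ningxiang for TNNI2, TNNT1 and TNNI1, while TNNT3 had one in every list of both. Of all 2159 genes with a peak, 31.2% had one in more Large White than Ningxiang lists, and 21.1% the reverse. Neither the number of peaks nor the exonic bases under them separated the breeds for any of the 4 genes.

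**Figure D1:**
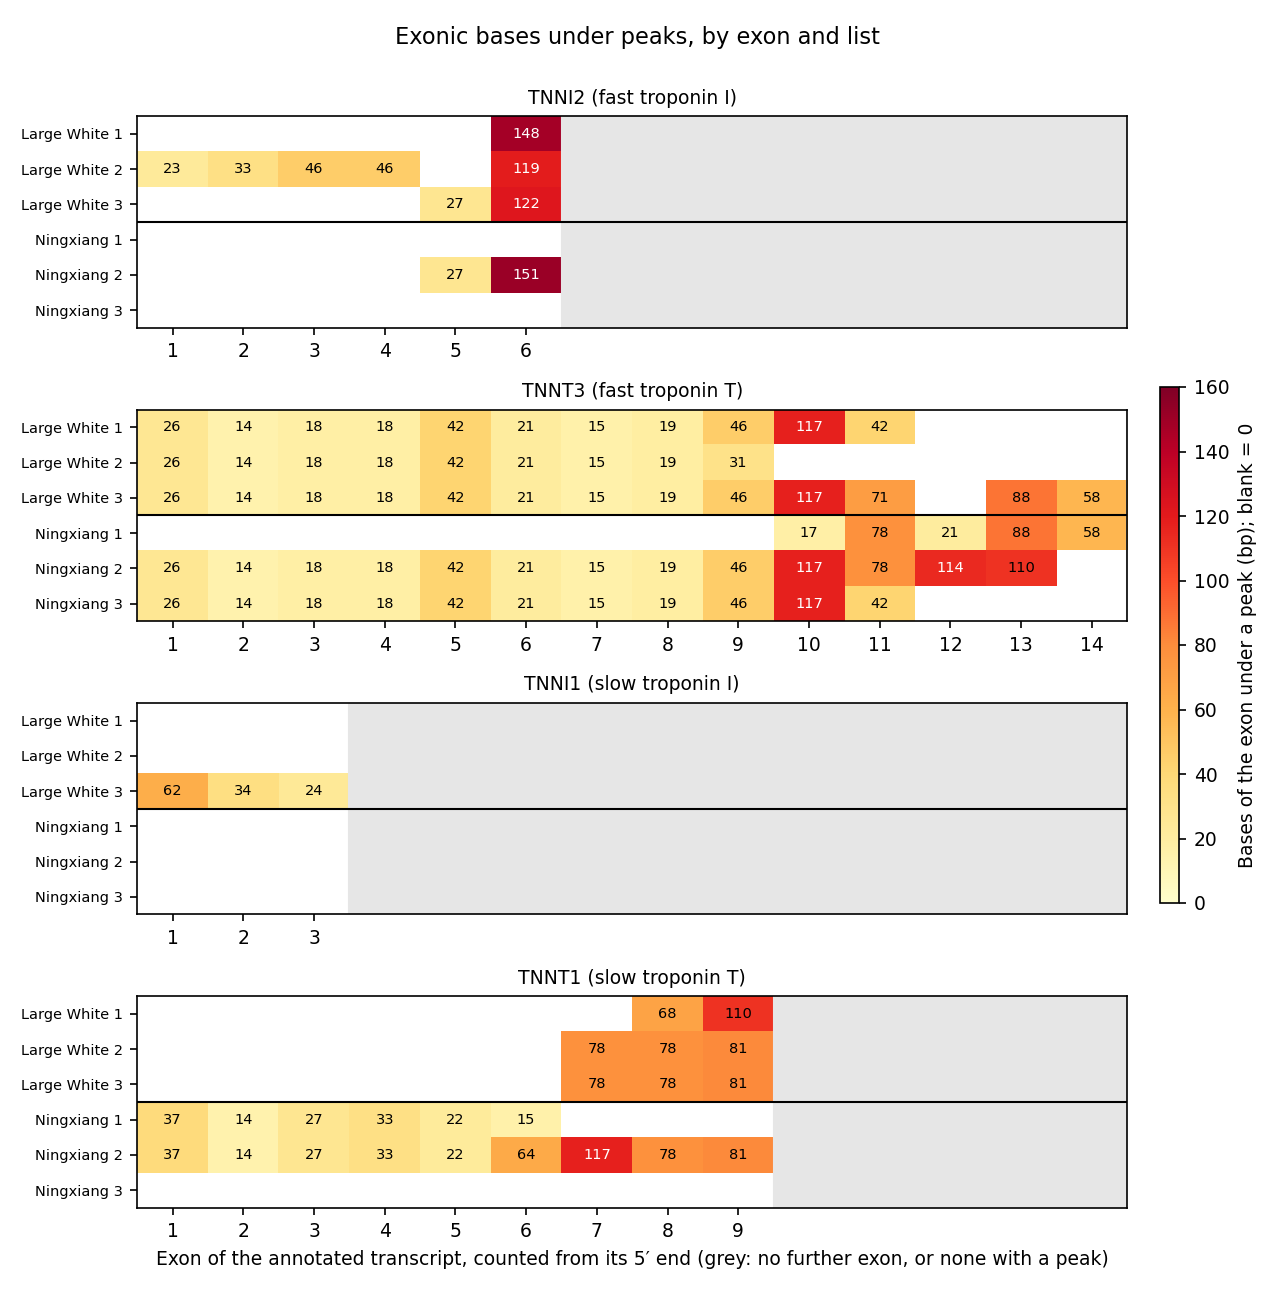
Each panel is 1 troponin gene, rows are the 6 lists with Large White above the black line and Ningxiang below it, and columns are exons from the 5′ end of the annotated transcript. Cells give the bases (bp) of that exon under a peak. TNNT3 is covered from exon 1 in 5 of 6 lists, while TNNT1 exons 1 to 6 are covered in 2 Ningxiang lists and no Large White list.

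TNNT3 encodes the fast isoform of troponin T, whose short exons for the N-terminal part are known to be alternatively spliced. The gene lies on the plus strand of chromosome 2, with its annotated transcript from 1302308 to 1316406 (build susScr11) in 16 exons. In Large White replicates 1, 2 and 3 its peaks covered 378, 204 and 553 exonic bases, and in Ningxiang replicates 1, 2 and 3 they covered 262, 638 and 378. The ranges overlap across most of their length, and the highest and the lowest value of all 6 belong to different breeds. Means were 378 ± 174.5 bases in Large White and 426 ± 192.5 in Ningxiang (SD, n = 3 each). The difference for Large White minus Ningxiang was -47.7 bases (exact permutation test, two-sided p = 0.8, adjusted p = 1 over 2159 genes). It turned positive without Large White replicate 2, at 39.5 bases, and without Ningxiang replicate 2, at 58.3.

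Most TNNT3 peaks were long runs over many short exons that began at the first base of the transcript. In Large White replicate 1 the peak spanned 1302308 to 1312573, a genomic length of 10266 bp, of which 378 bases were exonic, in 11 exons. The Ningxiang replicate 3 peak had the same ends. Large White replicate 3 ended at 1312602, in the same exon, Large White replicate 2 ended in exon 9 at 1311399, and Ningxiang replicate 2 ran on to exon 13 at 1313162. Exons 1 to 9, between 14 and 46 bases long, were thus under a peak in 3 of 3 Large White and 2 of 3 Ningxiang lists.

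The exception was Ningxiang replicate 1, whose TNNT3 peaks began in exon 10, at 1312416, and in exon 13, at 1313075. The peak over exons 13 and 14, from 1313075 to 1313299, was written with identical ends in Large White replicate 3. A peak on TNNT3 in every list thus did not mean a shared place: 204 exonic bases were shared by 3 Large White and 2 Ningxiang lists, 59 by 2 Large White and 3 Ningxiang lists, and none by all 6. Of the 771 genes with a peak in all 6 lists (35.7% of all genes with a peak), 149 (19.3%) likewise had no exonic base shared by all 6. In transcript bases counted from the 5′ end, the TNNT3 peaks lay between base 1 and base 696, and the last exons, 15 and 16, had no peak.

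TNNI2, the fast isoform of troponin I, had a peak in 3 of 3 Large White lists and 1 of 3 Ningxiang lists, a combination shared by 2.87% of all genes with a peak. Its transcript lies 48.4 kb before that of TNNT3, on the plus strand of chromosome 2 from 1251566 to 1253883, in 7 exons. Exonic bases under peaks were 148, 267 and 149 in Large White replicates 1, 2 and 3, against 0, 178 and 0 in Ningxiang replicates 1, 2 and 3. The Ningxiang value of replicate 2 lay above the Large White values of replicates 1 and 3, so the breeds overlapped. Means were 188 ± 68.4 bases in Large White and 59.3 ± 102.8 in Ningxiang (SD, n = 3 each), a difference of 128.7 (exact permutation test, two-sided p = 0.3, adjusted p = 1). Peak numbers were 1, 2 and 1 in Large White, against 0, 1 and 0 in Ningxiang (exact permutation p = 0.3, n = 3 each).

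All 4 lists with a TNNI2 peak had one in exon 6, the exon before the last. It ran from 1253389 to 1253536 in Large White replicate 1 and from 1253389 to 1253507 in Large White replicate 2. In Large White replicate 3 and Ningxiang replicate 2 it began in exon 5, at 1253273, and ended at 1253507 and 1253536. The 119 bases from 1253389 to 1253507 were under a peak in all 4. Large White replicate 2 alone had another peak, over exons 1 to 4 from the first base of the transcript, 1251566, to 1253041.

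TNNT1, the slow isoform of troponin T, had a peak in 3 of 3 Large White lists and 2 of 3 Ningxiang lists, as 7.97% of all genes with a peak did. It lies on the minus strand of chromosome 6, from 59351476 to 59363610, in 13 exons. Large White replicates 1, 2 and 3 had 178, 237 and 237 exonic bases under peaks, and Ningxiang replicates 1, 2 and 3 had 148, 473 and 0. The Ningxiang values lay on both sides of the narrow Large White range. Means were 217 ± 34.1 bases in Large White and 207 ± 242 in Ningxiang (SD, n = 3 each), a difference of 10.3 (exact permutation test, two-sided p = 0.9, adjusted p = 1). Single Ningxiang lists set its sign: it was 143.3 without replicate 2, -19.2 without replicate 1 and -93.2 without replicate 3. Without a Large White list it was 30, 0.5 and 0.5 for replicates 1, 2 and 3.

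The TNNT1 peaks did not lie in the same exons in every list. Large White peaks were in the middle of the transcript, from 59355442 to 59359302 (exons 9 and 8) in replicate 1 and from 59355471 to 59359599 (exons 9 to 7) in replicates 2 and 3, with identical ends. None of them reached exons 1 to 6. Ningxiang replicate 1 had the reverse, a peak over exons 6 to 1 from 59360097 to the transcript start at 59363610, and none in exons 7 to 9. Ningxiang replicate 2 had a single peak over exons 1 to 9, from 59355471 to 59363610. The 5′ 148 bases of the transcript were thus under a peak in 2 of 3 Ningxiang and 0 of 3 Large White lists, and 149 bases in exons 8 and 9 in 3 of 3 Large White and 1 of 3 Ningxiang lists.

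Counted over exonic regions, meaning runs of exonic bases under a peak in any list, the 4 troponin genes had 32 of 9348. The 7 of them that no Large White list covered, exons 1 to 6 of TNNT1 and exon 12 of TNNT3, each had a peak in 2 Ningxiang lists. Over all genes, 18.5% of regions had no Large White list, and 3.64% had none with 2 or 3 Ningxiang lists. The 6 exons of TNNT1 belong to the same pair of peaks and are not separate sites. Another 7 troponin regions, all in TNNI1 or exons 1 to 4 of TNNI2, had a peak in 1 Large White and no Ningxiang list. Over all genes 28.3% had no Ningxiang list, and 7.27% had none with 2 or 3 Large White lists. In all, 12 troponin regions were in 3 of 3 Large White lists and 2, exons 10 and 11 of TNNT3, in 3 of 3 Ningxiang lists, where the shares over all genes were 26.4% and 20.0%. Of the 12, 9 were exons 1 to 9 of TNNT3, which lie under 1 peak per list and are not separate sites. Ningxiang replicate 1 lacked that peak. No troponin region was in 3 of 3 lists of one breed and absent from the other.

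TNNI1, the slow isoform of troponin I, had a single peak, in Large White replicate 3. It covered 120 exonic bases at the 5′ end of the transcript, exons 1 to 3, within 23793259 to 23800108 on the minus strand of chromosome 10. The other 5 lists had none. A peak in 1 Large White list and no Ningxiang list was the pattern of 10.4% of all genes with a peak. The mean was 40 ± 69.3 bases in Large White and 0 in Ningxiang (exact permutation test, two-sided p = 1, n = 3 each, adjusted p = 1), and the difference was 0 without Large White replicate 3, the longest list.

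**Figure D2:**
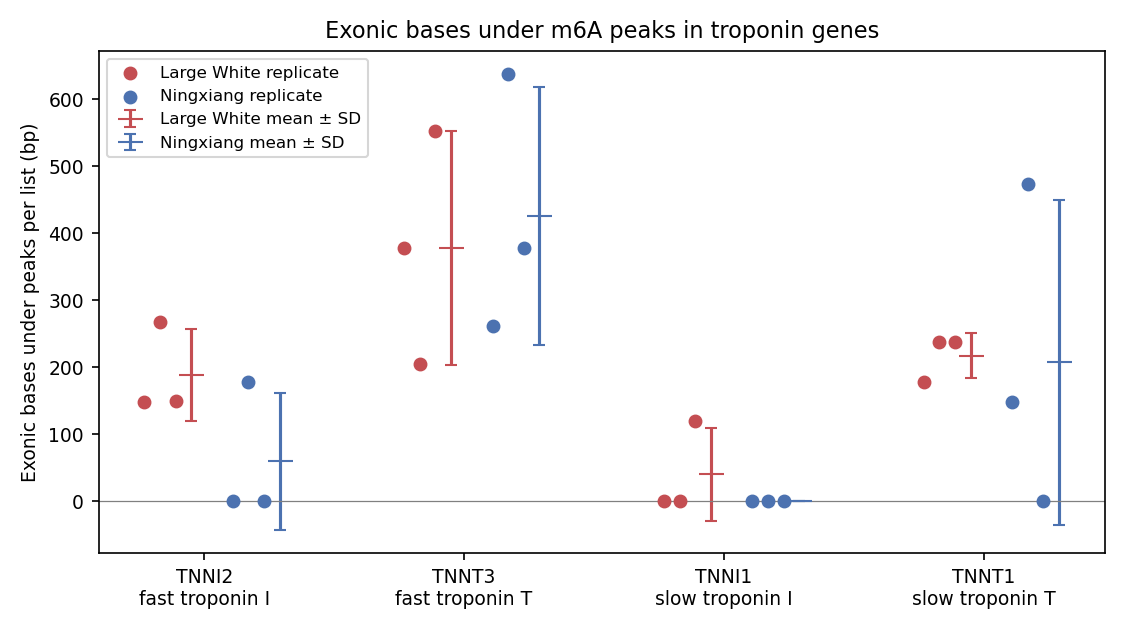
Points are the exonic bases (bp) under peaks in each list, with Large White on the left of each gene and Ningxiang on the right, and bars are mean ± SD over 3 lists. The breeds overlap for TNNI2, TNNT3 and TNNT1, and TNNI1 is above 0 in 1 Large White list.

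Over all 2159 genes, 168 (7.78%) had every Large White list above every Ningxiang list in exonic bases and 63 (2.92%) the reverse, against 0 of 4 troponin genes in either direction. For peak numbers these shares were 2.5% and 1.34%, again with none of the 4 troponin genes. The median difference in exonic bases was 25.2 over the troponin genes and 39.7 over all genes. No gene passed an adjusted p of 0.05 in the exact permutation test, and none had an unadjusted p under 0.05, because 3 lists against 3 cannot give less than 0.1.

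Troponin peaks stood near the top of each list by p-value and mostly below its median by fold. The fold is the authors' linear ratio of immunoprecipitated over input signal, and with the log10 p it is used here only to place a peak within its own list. The log10 p of the 19 peaks ranged from -4650 to -264, where list medians were -11.0 to -9.395. All 19 were within the first 2.258% of their list by p. Their folds ranged from 1.56 to 2.82, and 17 of 19 were below the median fold of their list, which was 2.42 to 2.605. Within each list the troponin peak with the lowest p was one of TNNT3, up to rank 4 of 2034 in Ningxiang replicate 1. The slow genes ranked below the fast ones in the same list, TNNT1 between rank 20 of 2533 in Large White replicate 3 and rank 50 of 2214 in Large White replicate 2, and TNNI1 at rank 54 of 2533.

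At a given fold, a p-value becomes lower as more reads are counted, and the read counts were not analysed here. The part of mRNA level in these ranks was not tested. Peaks of other genes with a log10 p of -264 or lower numbered 36 to 55 per list, and their median fold was 1.94 to 2.515. A low p with a low fold was not particular to troponin. CKM peaks had folds of 1.71 to 1.93 at log10 p of -13400 to -6110, and DES peaks 1.67 to 1.91 at -1540 to -260. ATP2A1 differed, with folds of 2.63 to 3.32 at log10 p of -3590 to -2030.

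**Figure D3:**
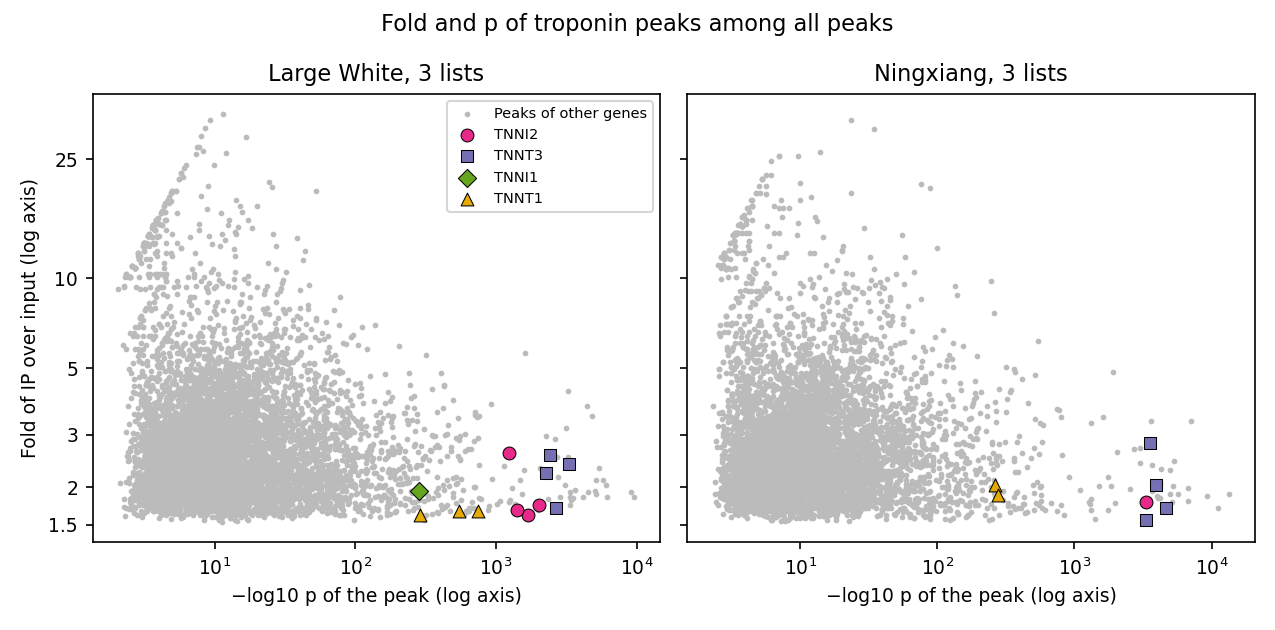
Each point is 1 peak, with minus log10 p on the horizontal and fold on the vertical axis, both on log scales, for the 3 Large White lists on the left and the 3 Ningxiang lists on the right. Troponin peaks lie toward the right, at folds of 1.56 to 2.82, and some peaks of other genes lie further right.

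Within the troponin genes, peaks at the transcript start had higher folds, but they also differed in length and gene. Their median was 378 exonic bases (120 to 638), against 148.5 (116 to 237) for the other peaks, and most were TNNT3 peaks. The parts of position, length and gene were not tested. The 9 peaks that reached the first base of the transcript had folds of 1.89 to 2.82, and the 10 that did not had 1.56 to 1.78. Of the lists, 5 held both kinds, and in 5 of 5 every peak reaching the start had a higher fold than every other troponin peak. In Large White replicate 2 the TNNI2 peak over exons 1 to 4 had a fold of 2.61, while its exon 6 peak had 1.61. In Large White replicate 3 the TNNT3 peak over exons 1 to 11 had 2.23 and the one over exons 13 and 14 had 1.70. These are the only lists in which 1 troponin gene had both.

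The separation was smallest in Ningxiang replicate 2, where TNNT1 from exon 1 had 1.89 and TNNI2 in exons 5 and 6 had 1.78. The other lists with both kinds had a lowest fold at the start of 2.39, 2.56 and 1.94 in Large White replicates 1, 2 and 3 and 2.04 in Ningxiang replicate 1. The highest elsewhere was 1.74, 1.62 and 1.70 in those Large White lists and 1.71 in that Ningxiang list. Ningxiang replicate 3 had a single troponin peak, TNNT3 from exon 1, at 2.82. This pattern was noticed in the data and has no test. Of the peaks of other genes, 3.036% to 4.683% per list reached a transcript start. Among genes with both kinds in a list, 29 to 56 of them, the highest start peak exceeded the highest other peak in 52.8% to 65.5%. This compares the highest peak of each kind within a gene, unlike the contrast of every troponin peak across genes. Among peaks of other genes with a log10 p of -264 or lower, only 1 to 3 per list reached a start. Their median fold was 2.93 to 5.04, against 1.91 to 2.41 for such peaks elsewhere, and it was higher in all 6 lists. Without that limit on p, the median folds of other genes' peaks were 2.32 to 2.95 at the start and 2.42 to 2.59 elsewhere. The start median was lower in Ningxiang replicate 2, at 2.32 against 2.55, and higher in the other lists. In Large White replicate 1 the medians were 2.61 and 2.56.

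**Figure D4:**
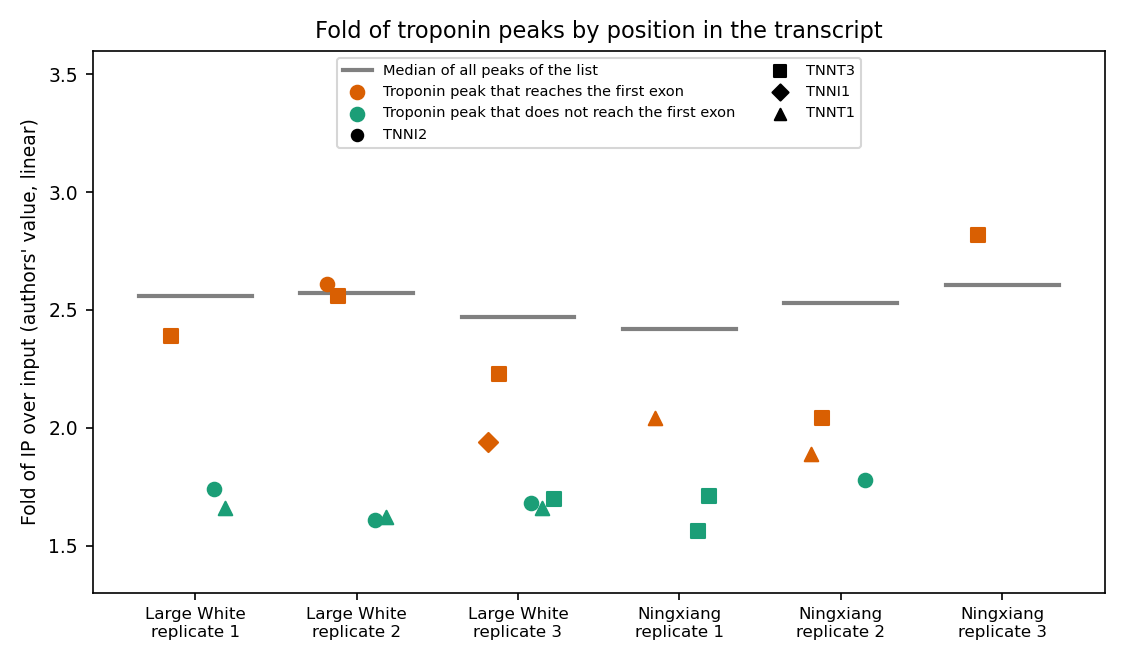
Points are the folds of the 19 troponin peaks by list, orange where the peak reaches the first exon and green where it does not, with marker shapes for the genes and a grey line at the median fold of all peaks of the list. In the 5 lists with both colours, every orange point is above every green one.

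Of the other troponin genes, TNNT2 had peaks in all 6 lists, and TNNC1, TNNC2 and TNNI3 had none although each has a curated transcript. TNNT2 encodes cardiac troponin T, which developing skeletal muscle also makes, and its transcript lies 28.6 kb from that of TNNI1 on chromosome 10. Its 11 peaks had folds of 1.69 to 4.63 and log10 p of -65.8 to -8.32, so all were weaker by p than every peak of the 4 troponin genes above. Exonic bases were 479, 1015 and 687 in Large White replicates 1, 2 and 3, and 687, 924 and 747 in Ningxiang replicates 1, 2 and 3, again overlapping. The genes without a peak include both forms of troponin C, the fast TNNC2 and the slow TNNC1.

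Among 10 other genes of fast fibres, 8 have a curated transcript that could carry a peak and 7 had one, 4 of them in all 6 lists. The 4 were MYH1, MYH2 and MYH4, the fast myosin heavy chains, and ATP2A1, the calcium pump of fast fibres. Of 10 other genes of slow fibres, 6 could carry a peak and 3 had one. They were MYOZ2, a Z-disc protein of slow fibres, in all 6 lists, MYH7, the slow myosin heavy chain, in 5, and ATP2A2, the calcium pump of slow fibres, in 4. Of all 2159 genes with a peak, 35.7% had one in all 6 lists. The share of all genes with a curated transcript that had a peak is not given here, so the fast and slow counts are not compared. MYH7 had 630, 570 and 390 exonic bases in Large White replicates 1, 2 and 3, and 419, 661 and 0 in Ningxiang replicates 1, 2 and 3. Ningxiang replicate 3, where MYH7 had no peak, also had none on the slow TNNT1 and the fast TNNI2, while the slow genes ATP2A2 and MYOZ2 had 180 and 476 exonic bases under peaks there. None of these 10 fast and slow genes with a peak separated the breeds in exonic bases. MYL1, the fast myosin light chain, lacked a peak in Ningxiang replicate 1, and its peaks had folds of 1.80 to 1.94 and log10 p of -3440 or lower.

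Genes most like each troponin gene were taken among those with a peak in exactly the same lists, by the smallest summed difference in exonic bases over the 6 lists. For TNNT3 these were PDIA4, DCAF8 and HMGB2, with summed differences of 374, 397 and 443 bases among 770 genes. For TNNT1 they were EIF3D, CAMK2D and NFS1, at 244, 301 and 326 bases among 37 genes. For TNNI2 they were ITM2C and AIMP1, at 148 and 153 bases among 24 genes, with ASCC1 and 1 other gene level at 174. For TNNI1, 18 of 80 genes had exactly the same 120 bases in the same list, so none is singled out. Exonic peak lengths are close to multiples of 30 bases, within 3 below and 1 above for 88.7% of all peaks. Whether such ties come from that step was not tested. None of the TNNT3 peaks, with 116 to 638 exonic bases, lay within that margin of a multiple.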

How the data were processed

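Per the labels' protocols, mRNA was fragmented, enriched with an m6A antibody, and sequenced beside unenriched input; the 12 libraries gave 6 deposited peak lists. Tools listed in the submitters' processing notes are FastQC 0.11.9, HOMER and ChIPseeker 1.30.2, with the build susScr11. Not given in the sources used here are the aligner, the peak caller and the handling of reads shared between paralogs. Per the file headers, each peak has exon blocks, a fold (linear ratio of immunoprecipitated over input), a p-value and its log10, which served as the score for ranking because 15 of the 19 p-values are written as 0. Fold and p-value are the authors' deposited values.

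Starts were converted to count from 1. Blocks follow 1 curated transcript per troponin gene, so exons outside it cannot carry a peak. TNNT3 has 42 RefSeq transcripts on Sscrofa11.1 and TNNT1 has 16. Exon numbers on the minus strand were turned to count from the 5′ end, and splice edges were checked to be the same in every list. Deposited untranslated-region classes were not used: the only TNNI1 peak, at the 5′ end, is listed as 3′. Peak numbers and exonic bases per gene were compared by exact two-sided permutation tests over all 2159 genes with Benjamini-Hochberg adjustment, after a check on simulated data (Python 3.11.15, pandas 2.3.3, NumPy 2.4.6). The simulated shifts were much larger than the differences seen here. The check therefore covers the code and not the ability to find small differences. Members, gene lists and the rule for named genes (the 4 members, other troponins, fast and slow fibre genes, and 3 most similar genes each) were chosen with earlier results of these data known. Planned motif counts were not made, since no genome was used.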

Additional observations from a re-analysis of the deposited data

How the results depend on the processing

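All 19 troponin peaks lie within the first 2.258% of their list by p. Reducing each list to the 50% of its peaks with the lowest p, or to 2034 peaks, could therefore remove none, and says nothing about stability. With a fold of 2 or more, 7 of the 19 peaks remained. The TNNI1 differences for Large White minus Ningxiang were then 0 peaks and 0 bases, those of TNNT1 turned to -0.333 peaks and -49.3 bases, and that of TNNT3 was 0.333 peaks, where all peaks gave 0. The TNNI2 differences were 0.333 peaks and 49.3 bases, where all peaks gave 1 and 128.7, with only the Large White replicate 2 peak left. That of TNNT3 in bases was -9, where all peaks gave -47.7. Over genomic spans with introns the TNNT3 difference turned to 2688 bp, and as a percent of the list's exonic bases that of TNNT1 turned to -0.004715. With an overlap of 50% of a region required, 1 region in place of 2 was in 3 of 3 Ningxiang lists.

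Leaving out each list in turn gave peak differences of 0 to 0.5 for TNNI1, 0.667 to 1.333 for TNNI2, 0 to 0.5 for TNNT1 and -0.333 to 0.333 for TNNT3. Exonic differences were 0 to 60.0 bases for TNNI1, 89.2 to 188 for TNNI2, -93.2 to 143.3 for TNNT1 and -135 to 58.3 for TNNT3. With 2 lists on one side the smallest adjusted p of a troponin gene was 0.7535 (exact permutation test). With the replicate number as a block, the mean difference over 3 pairs equals the difference of means by construction. Its value therefore says nothing about stability, and only the p-value can change. Sign flips gave exact p = 0.25, the smallest possible, for the 128.7 bases of TNNI2. For the 10.33 bases of TNNT1 the sign flips gave exact p = 0.75. In exonic bases, deviations of same-numbered lists correlated at 0.029, 0.0134 and -0.0351 for replicates 1, 2 and 3. In peak numbers they correlated at 0.0476, 0.0346 and -0.016. With 3 lists per breed, such values cannot settle whether the replicate numbers pair the samples. The causes of these shifts were not tested. Unknown read depth limits all calls.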
